A study of Homo sapiens with 8 samples.

Results

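Matricellular proteins are secreted into the extracellular matrix, where they act less as structural fibres than as signals: they bind collagens, fibronectin, growth factors and cell-surface receptors and alter how cells adhere and migrate. The 8 genes described here encode thrombospondins 1, 2 and 3 (THBS1, THBS2, THBS3), tenascin C (TNC), periostin (POSTN), SPARC (osteonectin), collagen triple helix repeat containing 1 (CTHRC1) and the transforming growth factor beta induced protein (TGFBI). They were taken by name from the 54174 gene symbols of the deposited table, and all 8 were present. In bone, SPARC binds collagen and mineral, and tenascin C and periostin are best known from remodelling tissue, where transforming growth factor beta (TGF-beta) is an inducer of several of these genes.

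The samples were 143B cells, an established human osteosarcoma line, 48 h after transient transfection. In 4 libraries, labelled NELL1 knockout, the cells had received a NELL1 knockout plasmid, and in 4 libraries, labelled control, a vector plasmid. NELL1 is itself a secreted matrix-associated protein, and by its title the series asks about the matrisome, the genes of the extracellular matrix. Both groups are the same cell line treated with the same reagent, the transfected cells were not said to be selected or cloned, and the design text calls the replicates biological. The values are log2 expression values taken as quantile normalized, so every difference below is relative to the rest of the transcriptome. The unit before the logarithm is not given in the sources used here, and neither are counts, so depth is unknown and levels are compared between libraries and not between genes.

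Each library held values for 14911 to 15171 genes. NELL1 did not check the labels: control libraries averaged -5.87 ± 1.29 (SD, n = 4) and knockout libraries -5.88 ± 1.07 (SD, n = 3) on the log2 scale, with knockout library 3 blank. Libraries of the knockout group came in close pairs. Taken over the fitted genes, the difference between 2 libraries had an SD of 0.12 for knockouts 1 and 2 and of 0.13 for knockouts 3 and 4, but 0.46 to 0.50 between those pairs, against 0.36 to 0.45 between a knockout and a control. Among controls the SD was 0.10 for controls 1 and 2 and 0.19 for controls 3 and 4. Control 4 was nearer to control 2 (0.13), so controls 3 and 4 were not such a pair. The members' results are therefore also given within replicates 1 and 2, within replicates 3 and 4, or with each knockout pair averaged. Of the 7 markers of bone-forming cells, RUNX2, ALPL, COL1A1 and SPP1 had values in all 8 libraries and BGLAP in 3, while SP7 and IBSP were blank in all 8. RUNX2 averaged 0.20 ± 0.17 in control and 0.25 ± 0.10 in knockout libraries (SD, n = 4 each). SPP1 alone among these markers was high enough for the fit. Of the leukocyte markers, PTPRC and CD3E were blank in all 8 libraries and CD14 in 2 of them, while CD68 averaged 5.84 ± 0.08 in control and 5.68 ± 0.17 in knockout libraries (SD, n = 4 each). The epithelial keratin KRT18 averaged 8.84 ± 0.06 in control and 9.03 ± 0.08 in knockout libraries (SD, n = 4 each). Of the other epithelial markers, KRT8 and EPCAM had values in all 8 libraries, KRT19 in 6 and CDH1 in 2.

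The promoters of THBS1, THBS2 and SPARC are shown first because they held a match to the motif CATTCC. THBS1 and THBS2 also varied together across the libraries, as described below. The Pearson correlation of SPARC was 0.45 with THBS1 and 0.16 with THBS2. A link between the motif and these correlations was not tested. Coordinates of genes and promoters are those of RefSeq on GRCh38.p14. Promoter sequences were found for 7 of the 8 genes, and the 250 bases before the annotated start were searched on both strands for 3 motifs: CATTCC, the core recognised by TEAD factors, TGANTCA, recognised by AP-1, and the palindrome GTCTAGAC, recognised by SMADs. A CATTCC match occurred for 3 of the 7 genes (THBS1, THBS2 and SPARC), against 11.9% of all 35116 promoter windows. The units differ: members were counted by gene and the background by window, and a gene can have multiple windows, as THBS3 did. TGANTCA occurred in POSTN alone (6.57% of all windows) and GTCTAGAC in none of the 7 (0.182% of all windows). These matches describe letters in a window and do not show that a factor binds there. The window of THBS1 is printed in full, and those of THBS2 and SPARC as 30 bases around the match. Sequences read 5′ to 3′ on the gene's own strand, with CATTCC or its reverse complement GGAATG in capitals.
THBS1, chr15:39580829-39581078, plus strand: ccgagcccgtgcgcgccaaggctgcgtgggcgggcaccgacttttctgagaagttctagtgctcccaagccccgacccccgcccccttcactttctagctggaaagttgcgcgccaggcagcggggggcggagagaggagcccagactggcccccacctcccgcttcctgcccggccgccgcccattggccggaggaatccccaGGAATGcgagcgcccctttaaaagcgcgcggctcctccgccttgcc
THBS2, chr6:169253932-169253961, minus strand: gggggatgatgtCATTCCttcgaaGGAATG
SPARC, chr5:151686916-151686945, minus strand: ctaaacccctccaCATTCCcgcggtccttc
THBS2 held the 6 letters on both strands, beginning 103 and 91 bases before the annotated start. The single match began 46 bases before the annotated start in THBS1 and 17 bases before it in SPARC. The 30 bases of SPARC lie inside an exon of a longer GENCODE transcript model, and those of THBS1 and THBS2 in no exon of their own gene.

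The question of the comparison was whether the matricellular genes differed between knockout and control libraries. CTHRC1 fell and SPARC rose; TNC was lower in each knockout than in the control of the same number, and TGFBI was lower in all 4 knockouts than in every control, but neither passed the threshold in the fit of all 8 libraries. The group means of THBS1, THBS2 and THBS3 showed no difference past the threshold, and their knockout libraries split around the controls. Of the 8 genes, 6 were measured in every library with a mean log2 value of at least 1 and so entered the fit, which covered 9016 genes. Of these 6, 2 had an adjusted p-value under 0.05 (limma with Benjamini-Hochberg adjustment), 1 higher and 1 lower, beside a background of 13.1% of all tested genes (7.02% higher, 6.1% lower). The median log2 fold change of the 6 genes was -0.15, and that of all tested genes was 0.0072. The groups did not overlap for 3 of the 6 genes, beside 22.9% of all tested genes. With 6 genes these shares describe the set and were not tested against the background. At the stricter adjusted p under 0.01, which 3.02% of all tested genes met, CTHRC1 was the 1 called member. In the fit restricted to replicates 1 and 2, where 59.7% of all tested genes were called, CTHRC1, SPARC and TNC were called, and in that restricted to replicates 3 and 4, where 33.1% were called, TGFBI was called as well.

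**Figure D1:**
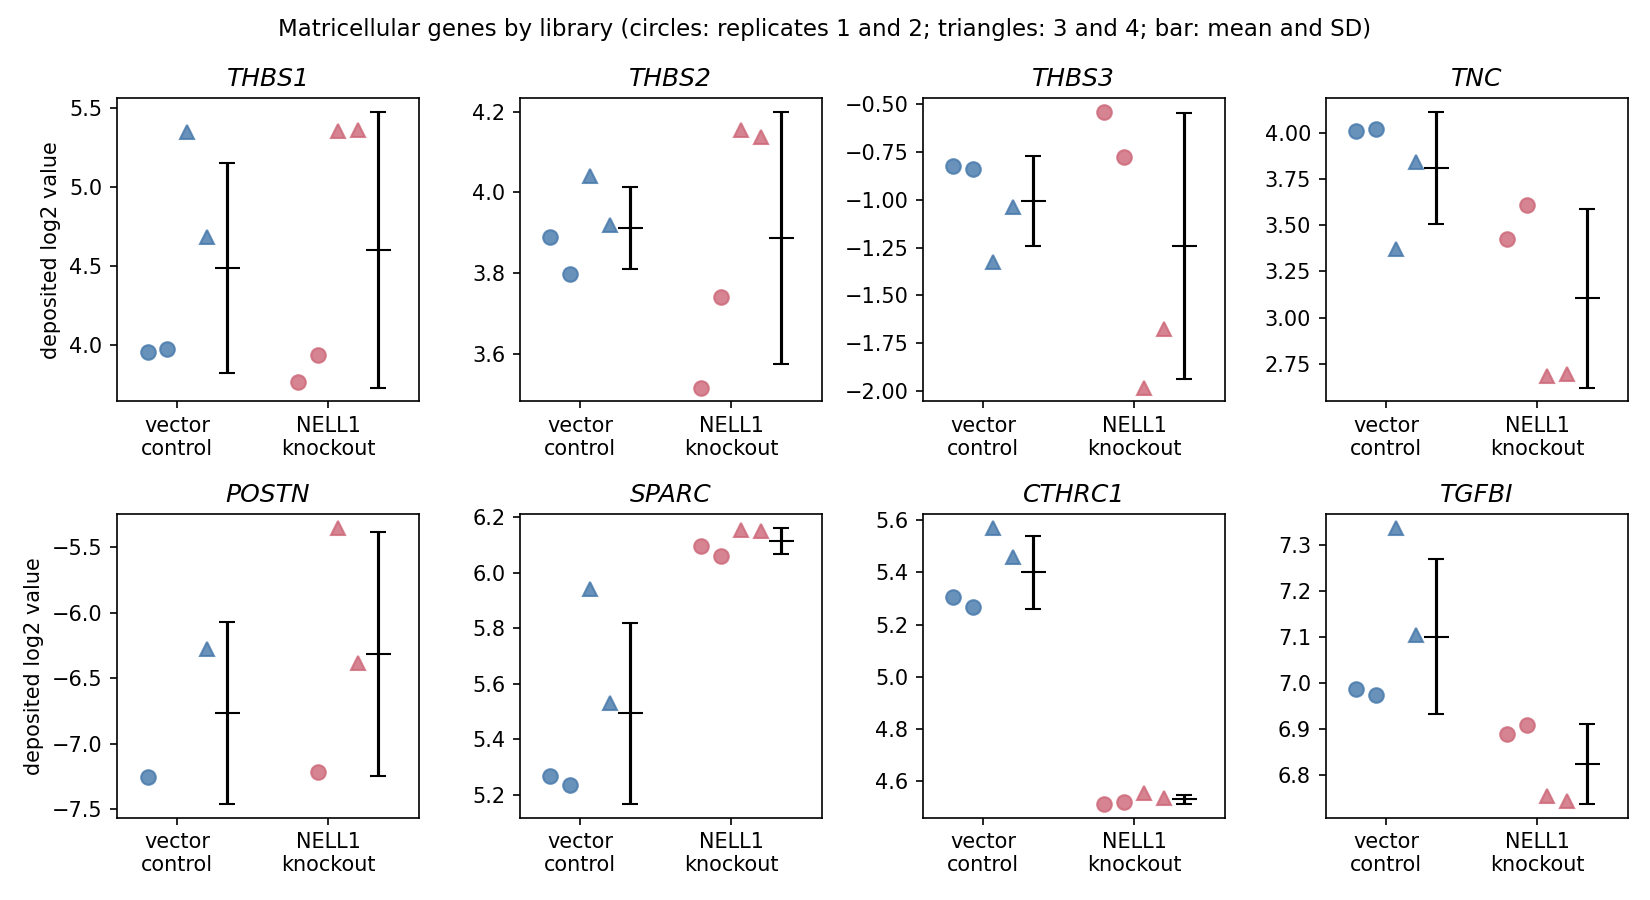
Deposited log2 value of each of the 8 genes in each library, with a separate vertical axis for each gene; circles are replicates 1 and 2, triangles are replicates 3 and 4, and the black bar is the mean ± SD of the libraries with a value. The knockout libraries of CTHRC1 lie together below all controls, those of SPARC lie above all controls, and those of the 3 thrombospondins split to both sides of the control values.

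CTHRC1 encodes a secreted glycoprotein with a short collagen-like repeat, known from bone, cartilage and wounded vessels as a factor that promotes cell migration and modulates Wnt signalling. CTHRC1 measured 5.30, 5.27, 5.57 and 5.46 in controls 1 to 4 and 4.51, 4.52, 4.55 and 4.54 in knockouts 1 to 4 on the log2 scale. Every knockout lay below every control, with a gap of 0.72 between the groups, and the 4 knockout values were closer to each other than the controls were. Group means were 5.40 ± 0.14 for control and 4.53 ± 0.02 for knockout libraries (SD, n = 4 each). The log2 fold change was -0.87 ± 0.08 (SE) with a limma adjusted p of 0.00117, which is 0.548 of the control level (95% interval 0.484 to 0.620). Within replicates 1 and 2 the difference was -0.77, and within replicates 3 and 4 it was -0.97, so it was present in both sets although the knockout sets differed across the transcriptome. With each knockout pair averaged the limma adjusted p was 0.0270, where 1.2% of all tested genes were called, and over all alternatives it ranged from 9.59e-05 to 0.512. The one alternative without the call averaged pairs in both groups, which left 2 values a group. There limma called 0 of 9016 genes, and 706 had an unadjusted p under 0.05.

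SPARC (chr5:151661096-151686915) encodes osteonectin, an abundant non-collagenous protein of bone matrix that binds calcium and collagen and is usually regarded as counter-adhesive. The log2 value of SPARC was 5.27, 5.23, 5.94 and 5.53 in controls 1 to 4 and 6.10, 6.06, 6.15 and 6.15 in knockouts 1 to 4. All knockouts lay above all controls, and the gap to control 3, the highest control, was 0.12. Control libraries averaged 5.49 ± 0.33 and knockout libraries 6.12 ± 0.05 (SD, n = 4 each). SPARC thus rose by 0.62 ± 0.15 log2 units (SE) at a limma adjusted p of 0.0294, to 1.54 times the control level (95% interval 1.22 to 1.94).

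The spread of SPARC was in the controls: controls 3 and 4 averaged 0.48 above controls 1 and 2, while the knockout pairs differed by 0.07. Knockouts exceeded controls by 0.83 within replicates 1 and 2 and by 0.42 within replicates 3 and 4. The SPARC call was near the threshold and was lost in 7 of the 8 fits with 1 library left out. In those 8 fits the log2 fold change stayed between 0.53 and 0.77. Without control 1, 2 or 4 the limma adjusted p was 0.0897, 0.0882 and 0.0795, and without knockout 1, 2, 3 or 4 it was 0.0526, 0.0508, 0.0666 and 0.0561. Without control 3 it was 0.00357. With each knockout pair averaged it was 0.155, and over all alternatives it ranged from 9.06e-05 to 0.611.

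TNC (chr9:115019575-115118157) encodes tenascin C, a hexameric glycoprotein that interferes with cell spreading on fibronectin and is raised in many tumour stromas. TNC measured 4.01, 4.02, 3.37 and 3.84 in controls 1 to 4 and 3.43, 3.61, 2.69 and 2.70 in knockouts 1 to 4 on the log2 scale. The groups overlapped because control 3 lay below knockouts 1 and 2, but each knockout was lower than the control of the same number. The same-numbered differences were -0.58, -0.41, -0.69 and -1.14. Control libraries averaged 3.81 ± 0.30 and knockout libraries 3.10 ± 0.48 (SD, n = 4 each). In the fit this difference of -0.70 ± 0.24 (SE) did not pass the threshold (limma adjusted p = 0.0919). With the replicate number as a block TNC passed it (limma adjusted p = 0.0312, where 10.2% of all tested genes were called), and over all alternatives the adjusted p ranged from 0.00146 to 0.659. Within replicates 1 and 2 the difference was -0.50, and within replicates 3 and 4 it was -0.91.

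TGFBI (chr5:136028988-136063818) encodes a fasciclin-domain protein, named for its induction by TGF-beta, that links collagens to integrins; periostin belongs to the same domain family. The log2 value of TGFBI was 6.99, 6.97, 7.34 and 7.10 in controls 1 to 4 and 6.89, 6.91, 6.76 and 6.74 in knockouts 1 to 4. The groups did not overlap, but the gap was 0.07. Control libraries averaged 7.10 ± 0.17 and knockout libraries 6.82 ± 0.09 (SD, n = 4 each). The difference of -0.28 ± 0.09 (SE), with a 95% interval from -0.49 to -0.06, had a limma adjusted p of 0.0897 and was not called. Over the alternatives the adjusted p ranged from 0.00985 to 0.693. Most of that difference came from replicates 3 and 4, where it was -0.47, against -0.08 in replicates 1 and 2. Whether the sets differed was not tested.

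**Figure D2:**
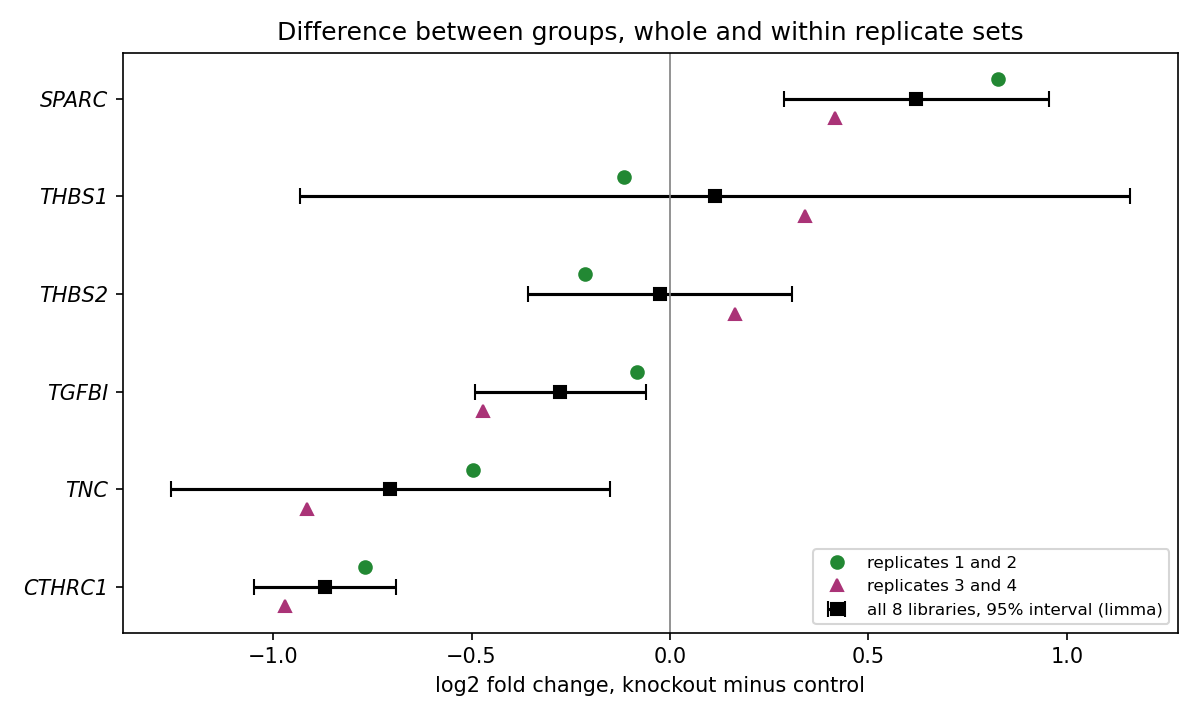
Log2 fold change, knockout minus control, of the 6 fitted genes: squares with bars are the limma estimates over all 8 libraries with 95% intervals, circles the difference within replicates 1 and 2, and triangles that within replicates 3 and 4. CTHRC1, TNC and TGFBI lie below 0 in both sets and SPARC above 0 in both, whereas THBS1 and THBS2 change sign between the sets.

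THBS1 (chr15:39581079-39599466) encodes a trimeric protein that activates latent TGF-beta and inhibits angiogenesis through the receptors CD36 and CD47. THBS1 measured 3.96, 3.97, 5.35 and 4.68 in controls 1 to 4 and 3.76, 3.94, 5.35 and 5.36 in knockouts 1 to 4 on the log2 scale. High and low values thus occurred in both groups: replicates 3 and 4 exceeded replicates 1 and 2 by 1.05 in the controls and by 1.51 in the knockouts. The range over the 8 libraries was 3.02-fold, yet the group means were 4.49 ± 0.66 and 4.60 ± 0.87 (SD, n = 4 each). The difference was 0.11 ± 0.46 (SE) with a limma adjusted p of 0.895, and its 95% interval ran from 0.524 to 2.23 times the control level.

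THBS2 (chr6:169215785-169253846) encodes the closest relative of thrombospondin 1, likewise a trimer and an inhibitor of angiogenesis. In log2 units THBS2 was 3.89, 3.80, 4.04 and 3.92 in controls 1 to 4 and 3.52, 3.74, 4.15 and 4.14 in knockouts 1 to 4. Knockouts 1 and 2 were below all controls and knockouts 3 and 4 above all controls. Group means were 3.91 ± 0.10 and 3.89 ± 0.31 (SD, n = 4 each). The difference was -0.02 ± 0.15 (SE) with a limma adjusted p of 0.929 and a 95% interval of 0.781 to 1.24 times the control level. Within replicates 1 and 2 the difference was -0.21, and within replicates 3 and 4 it was 0.16.

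THBS3 encodes a pentameric thrombospondin expressed in the developing skeleton. THBS3 measured -0.82, -0.84, -1.33 and -1.04 in controls 1 to 4 and -0.54, -0.77, -1.98 and -1.68 in knockouts 1 to 4 on the log2 scale. The split ran the other way from THBS1 and THBS2: knockouts 1 and 2 lay above all controls and knockouts 3 and 4 below all controls. Its mean was below the minimum for the fit, and the group difference of -0.24 was within the spread (two-sided p = 0.514 by exact permutation of 70 splits, the lowest attainable being 0.0286). In the fit without a filter on low values, where 8.3% of 13943 genes were called, its limma adjusted p was 0.686. The RefSeq models of THBS3 (chr1:155195588-155209178) and its neighbour MTX1 overlap by 484 bases, and whether reads were counted by strand is not given in the sources used here. MTX1 averaged 1.83 ± 0.17 in control and 2.01 ± 0.13 in knockout libraries (SD, n = 4 each) and did not show the split.

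Of the 6 fitted genes, THBS1 and THBS2 had the knockout pairs outside the control range on opposite sides, as did 14.9% of all tested genes. For THBS1 the margins to the nearest control were small, at 0.02 for knockouts 1 and 2 and 0.0066 for knockouts 3 and 4. For THBS2 they were 0.06 and 0.10, and for THBS3 0.05 and 0.35. The sets of replicates were recognised from the data and are not groups of the design, so the difference between them was not tested.

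POSTN (chr13:37562585-37598768) encodes periostin, a matricellular protein of periosteum and healing tissue that binds integrins and collagen. It had values in 5 of 8 libraries: -7.26 in control 1 and -6.28 in control 4, and -7.21, -5.36 and -6.38 in knockouts 2, 3 and 4. Knockout 1 and controls 2 and 3 were blank. Values overlapped between the groups, and the difference of the means of 0.45 was within the spread (two-sided p = 0.6 by exact permutation of 10 splits, the lowest attainable being 0.1). No difference in POSTN was detectable from so few values.

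Across the 8 libraries some members varied together. THBS1 and THBS2 had a Pearson correlation of 0.90, TNC and THBS1 of -0.74, TNC and SPARC of -0.84 and CTHRC1 and TGFBI of 0.85. CTHRC1 and THBS1 were nearly unrelated, at 0.05. These correlations are descriptions over 8 libraries. The knockouts come in close pairs, so the libraries hold fewer than 8 separate profiles.

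By the same measure, 2 genes most like each fitted member were named among all tested genes. For THBS1 they were NUP50 (r = 0.997), a nuclear pore gene, and FOS (r = 0.994), an immediate-early transcription factor gene. FOS ran from 1.28 in knockout 1 to 5.60 in knockout 3, with 2.15 and 2.29 in controls 1 and 2 and 5.17 and 3.97 in controls 3 and 4. Like THBS1, FOS was thus high in replicates 3 and 4 of both groups. For THBS2 the genes were HEXD (0.991) and SPRED2 (0.981).
For TNC they were HYOU1 (0.996), a chaperone gene of the endoplasmic reticulum, and ZNF581 (0.994). For SPARC they were RANBP1 (0.993), which encodes a regulator of the RAN GTPase, and CENPM (0.993), a centromere gene. CTHRC1 was most like EFNB1 (0.997), an ephrin ligand gene, and S100A16 (0.996), and TGFBI was most like SLC26A2 (0.985), the sulfate transporter gene, and GPBP1 (0.981). EFNB1 was 5.04, 4.99, 5.22 and 5.09 in controls 1 to 4 and 4.34, 4.28, 4.29 and 4.30 in knockouts 1 to 4, which again set all knockouts below all controls.

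**Figure D3:**
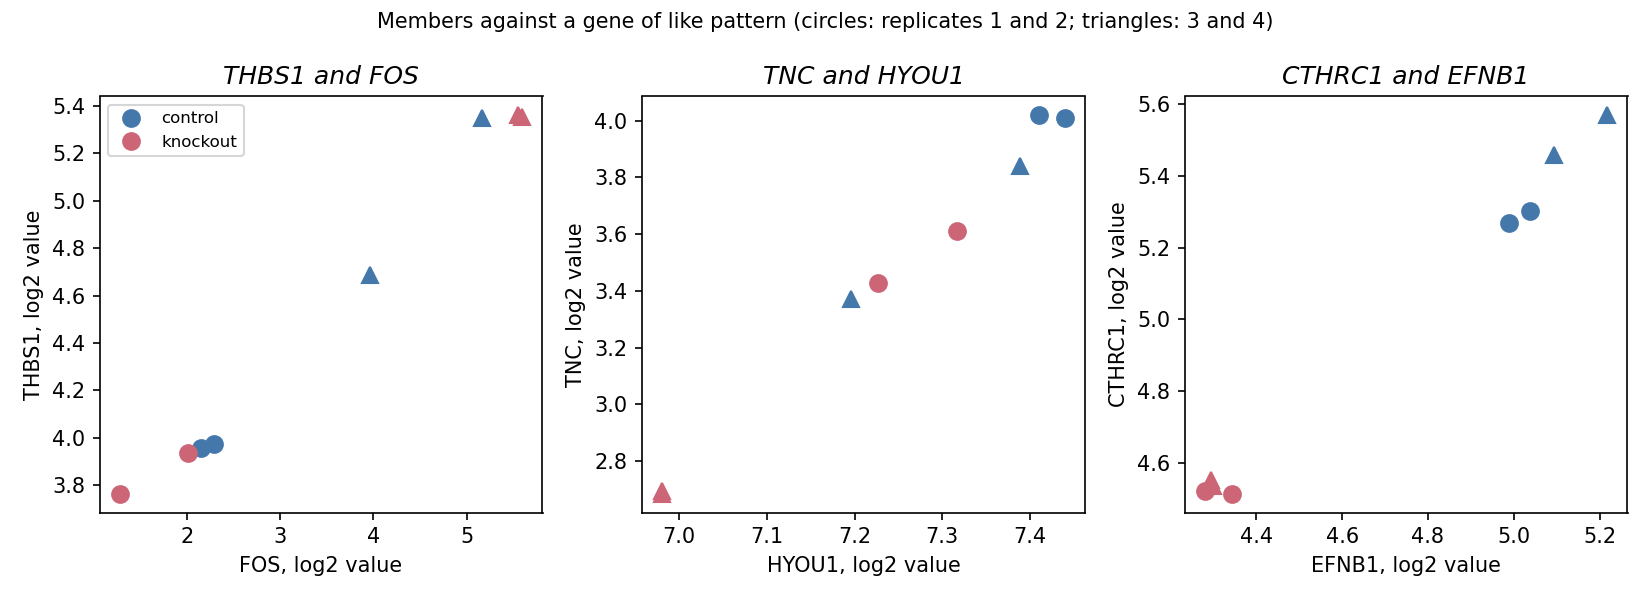
Log2 value of 3 members (vertical axis) against a gene of like pattern (horizontal axis), with 1 point for each library; circles are replicates 1 and 2, triangles replicates 3 and 4. THBS1 and FOS order the libraries by replicate set, with controls and knockouts mixed, whereas CTHRC1 and EFNB1 separate the knockout libraries from the controls; TNC and HYOU1 lie between these patterns.

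The genes around the 8 members were taken from 5 lists. These lists were chosen with earlier results of these data known, so the shares called describe the lists and were not tested against the background. The background of 13.1% counts both directions, with 7.02% of all tested genes called higher and 6.1% called lower. Of 25 genes for receptors that bind matricellular proteins, 15 were tested, and 8 were called (53.3%, background 13.1%), all of them lower, with a median log2 fold change of -0.34. The lower receptors included the thrombospondin receptor CD47 (-0.34, limma adjusted p = 0.0440), the integrin subunits ITGB5 (-0.83, adjusted p = 0.0306), ITGAV (-0.65, adjusted p = 0.0113) and ITGB1 (-0.34, adjusted p = 0.0171), and the heparan sulfate proteoglycan SDC4 (-0.76, adjusted p = 0.0110). The other 3 were ITGA3, ITGA5 and EGFR. CD36, the other classical thrombospondin receptor, had values in 3 libraries and was not tested. ITGB3, which pairs with ITGAV, averaged 3.44 ± 0.12 in control and 3.26 ± 0.47 in knockout libraries (SD, n = 4 each) and was not called. With each knockout pair averaged, 1 of the 8 called receptors, ITGA5, kept its call (limma adjusted p = 0.0387), and the other 7 lost it, with adjusted p-values from 0.0863 (ITGAV) to 0.176 (CD47). With the replicate block 6 of the 8 kept it, and CD47 (0.0554) and ITGA3 (0.0584) lost it.

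Of the matrix proteins that matricellular proteins bind, 13 of 18 were tested, 5 were called (38.5%, background 13.1%), all lower, and COL6A1, a collagen VI chain, had the largest fall (-1.30 ± 0.11 SE on the log2 scale; limma adjusted p = 0.00111). The 3 collagen VI genes COL6A1, COL6A2 and COL6A3 kept their calls with each knockout pair averaged, and FN1 (limma adjusted p = 0.0774) and SERPINH1 (0.0731) lost theirs. Of the proteases that can cleave matrix proteins, 11 of 16 were tested, 4 were called (36.4%, background 13.1%), all lower, led by MMP9 (-2.46 ± 0.38 SE; limma adjusted p = 0.00696). MMP9 kept its call with each knockout pair averaged (limma adjusted p = 0.0387), and MMP1 (0.0678), MMP14 (0.0764) and CTSB (0.0663) lost theirs. The 5 proteases not tested did not all go lower. ADAMTS1, too low for the fit, averaged -0.74 ± 0.22 in control and 1.28 ± 0.26 in knockout libraries (SD, n = 4 each). The means of MMP3, MMP7 and CTSK were also higher in knockout libraries, and that of MMP13 was lower. Of the TGF-beta pathway, 12 of 18 were tested and 1 was called (8.33%, background 13.1%), the corepressor gene TGIF1, at -0.83 (limma adjusted p = 0.0137). TGIF1 lost its call with each knockout pair averaged (limma adjusted p = 0.0625). TGFB1, the ligand that THBS1 can activate, averaged 4.41 ± 0.04 in control and 3.91 ± 0.34 in knockout libraries (SD, n = 4 each), which did not pass the threshold (limma adjusted p = 0.0647). Of 19 other matricellular genes, 5 were tested and 1 was called (20%, background 13.1%): CCN2, which encodes connective tissue growth factor, averaged 5.07 ± 0.28 in control and 5.87 ± 0.09 in knockout libraries (SD, n = 4 each), a rise of 0.81 ± 0.14 log2 units (SE) at a limma adjusted p of 0.00913. With each knockout pair averaged CCN2 lost its call (limma adjusted p = 0.0772).

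**Figure D4:**
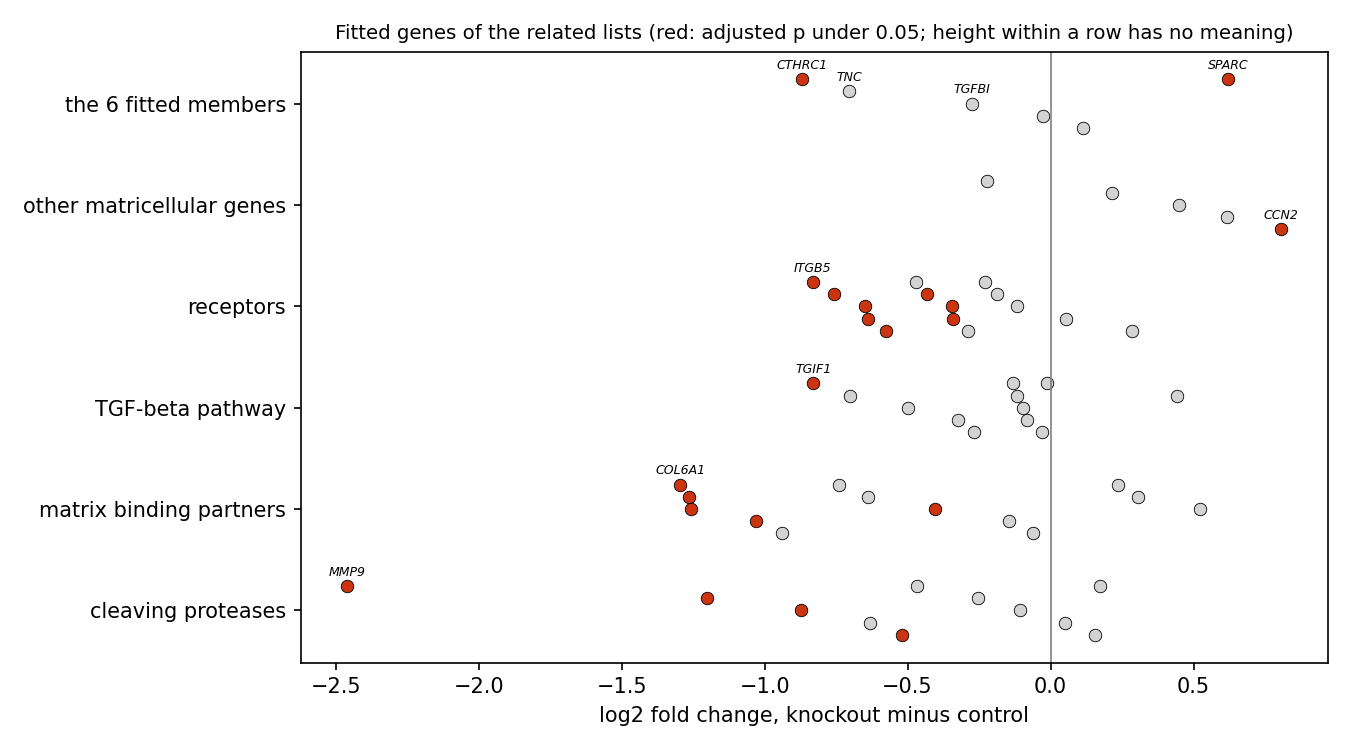
Log2 fold change, knockout minus control, of each fitted gene in the 5 lists and of the 6 fitted members; red points have a limma adjusted p under 0.05, and the position within a row has no meaning. Called receptors, binding partners and proteases all lie below 0, and SPARC and CCN2 are the called genes above 0.

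Some markers of cell state differed beside these genes. The mesenchymal markers VIM and ZEB1 fell by 0.43 and 0.27 on the log2 scale (limma adjusted p = 0.0425 and 0.0247), 2 of the 5 tested in that list (background 13.1%). The other 3, CDH2 (0.08), PRRX1 (0.01) and TWIST1 (-0.08), were not called. The fibroblast marker PDGFRA fell by 0.65 (limma adjusted p = 0.0440) and was the 1 tested gene of its list, in which DCN and LUM had a value in 1 library each. PDGFRB, too low for the fit, averaged -1.19 ± 0.30 in control and -0.71 ± 0.39 in knockout libraries (SD, n = 4 each). The keratin gene KRT8 rose by 0.38 (limma adjusted p = 0.0175), 1 of 3 tested epithelial genes (background 13.1%). The difference was 0.19 for KRT18 and -0.32 for EPCAM, neither of them called. With the replicate block VIM, ZEB1 and PDGFRA lost their calls (limma adjusted p = 0.0507, 0.0571 and 0.0880), and with each knockout pair averaged these genes and KRT8 did (0.132, 0.152, 0.134 and 0.104). Their part in the differences of CTHRC1 and SPARC was not tested. In such bulk samples, fewer cells that express a gene and less RNA per cell cannot be told apart, and the share of cells that took up a plasmid is not given in the labels.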

How the data were processed

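RNA sequencing of 8 libraries (4 vector control, 4 NELL1 knockout) was analysed from the deposited table, whose log2 values were taken as quantile normalized before deposit. The column means averaged 1.07, and over all libraries the values ran from -10.5 to 12.1. Base 2 was inferred from that range. Libraries were stranded total RNA per the labels' protocols, and the submitters' processing notes name bcl2fastq, Partek 7.0 and GRCh38. Aligner, counting and the rule for blank cells are not given in the sources used here. Blank cells were treated as missing.

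Columns were matched to samples by their description labels. limma 3.58.1 in R 4.3.3 (lmFit, eBayes) was fitted to 9016 genes (measured in every library, mean log2 value at least 1), with Benjamini-Hochberg adjustment over all of them and a call at an adjusted p under 0.05. THBS3 and POSTN, outside that fit, were compared by exact permutation tests. The fit was tested on simulated data with independent libraries. Those data held no close pairs like the knockouts here, so that test does not bear on p-values under such pairing. The members and gene lists were chosen with earlier results of these data known. Named genes were the 8 members and the 2 genes most correlated with each fitted member. From each list, the called gene with the largest rise and the one with the largest fall were named. The other receptors, TGFB1, the untested proteases and single markers were named after their values were seen.

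Same-numbered control and knockout libraries deviated together (correlation across genes 0.20 to 0.29 in the 4 pairs), so the replicate numbers, taken from the sample titles, were treated as pairs in a second fit; libraries of other number within 1-2 or 3-4 correlated alike (0.11 to 0.31). Alternatives were filters, scalings, a pseudocount of 1, a variance trend, the block, a batch term, averaged pairs, each replicate set alone and each library left out. In the fit of all 8 libraries, a p-value sets the difference of group means against the spread between libraries. It treats the 8 libraries as independent, which was not established for the close knockout pairs. CTHRC1 coordinates and promoter are not used here.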

Additional observations from a re-analysis of the deposited data

How the results depend on the processing

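Against 2 called members in the fit of all 8 libraries (13.1% of all tested genes called), averaging the knockout pairs left 1 (1.2%). Averaging pairs in both groups left 0 (limma; 0 of 9016 genes called, 2 members with an unadjusted p under 0.05). An adjusted p under 0.01 left 1 (3.02%), replicates 3 and 4 alone gave 4 (33.1%), and leaving out 1 library gave 1 to 2. The share over all genes is not given here for the fits with 1 library left out. The replicate block gave 3 (10.2% of all tested genes called), adding TNC (-0.70, limma adjusted p = 0.0312), and changed no other member's call. A batch term for replicates 1-2 against 3-4, sets recognised from the data, gave the same 3, with TNC at a limma adjusted p of 0.00605. The share over all genes is not given here for that fit. CTHRC1 kept its direction and its call in 19 of 20 alternatives. SPARC kept its direction in 20 of 20 and lost its call in 9. TNC and TGFBI kept their direction in all 20 alternatives. TNC was called in 4 of the 20 and TGFBI in 1. THBS1 (0.11) was reversed in replicates 1 and 2 alone (-0.11) and ranged from -0.14 to 0.40 when 1 library was left out. THBS2 (-0.02) was reversed in replicates 3 and 4 alone (0.16) and ranged from -0.11 to 0.10 when 1 library was left out. THBS3 (-0.24), with alternatives chosen after seeing the data, was reversed in replicates 1 and 2 alone (0.17) and ranged from -0.47 to 0.0099 when 1 library was left out. POSTN (0.45) ranged from -0.041 to 0.94 when 1 library was left out and was 1.27 with blank cells set to the lowest value. The causes were not tested. Depth is unknown.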

Other observations

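Of the other matricellular genes, 7 had a value in all 8 libraries but a mean below 1. Among these, TNXB and SPOCK1 were named after their values were seen. TNXB, which encodes tenascin X, lay between -0.76 and -0.03 in the controls and between -1.27 and -0.99 in the knockouts, with no overlap. SPOCK1, which encodes the proteoglycan testican 1, lay between 0.68 and 0.91 in the controls and between 0.22 and 0.51 in the knockouts, again with no overlap. The groups did not overlap for 22.9% of the genes in the filtered fit, and that share was not computed for genes below the filter. In the fit without a filter on low values, where 8.3% of 13943 genes were called, the log2 fold changes were -0.87 for TNXB and -0.48 for SPOCK1 (limma adjusted p = 0.0208 and 0.0220). The others were not called: COMP (0.49) and SPOCK2 (0.43) were higher, and SPOCK3 (-0.80), THBS4 (-0.47) and CCN3 (-0.21) lower in knockouts. The replicate block and the averaged pairs were fitted to filtered genes alone, so TNXB and SPOCK1 were not tested under them.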
